A study of Homo sapiens with 12 samples.

Results

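ERC4 is a line described in its labels as resistant to erlotinib, a small-molecule inhibitor of the EGFR kinase, and it was compared here with parental HCC827. HCC827 is a long-established human cell line from a lung adenocarcinoma whose EGFR gene is mutated to an active form, and its growth depends on EGFR signalling. Members were the 3 arrays titled ERC4 and the 3 titled with the parental line's name, 6 of the 12 arrays in the series. The other 6 carry HCC827 with a non-target shRNA (NT) or with an shRNA against EGFR (EGFRsh), 3 arrays each. Parental and ERC4 cells grew alike, in RPMI with 5% FBS and antibiotics, and were harvested while growing exponentially. No treatment is listed, so the labels do not place erlotinib in the medium of either group at harvest. ERC4 stands for resistance as a single line, and whether it is 1 clone or a pool is not given in the sources used here. One characteristic of the labels calls every sample resistant, the parental ones included, so groups were taken from titles. Nothing says that replicates were separate cultures, and p-values here reflect the spread between arrays alone, which may be technical.

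EGFR is a receptor tyrosine kinase that, once bound by a ligand or activated by mutation, signals through the RAS-MAPK and PI3K-AKT cascades. Erlotinib occupies the kinase's ATP pocket, and tumours that first respond usually relapse, through a second EGFR mutation, through another kinase that takes over, or through a change of cell state such as epithelial-to-mesenchymal transition. Transcript levels were read as fluorescence of probe sets, groups of short oligonucleotides that together report 1 transcript. Every level below is log2(intensity + 1), and every difference is ERC4 minus parental on that scale, with limma's standard error (SE) and n = 3 arrays per group.

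The parental and ERC4 arrays had median intensities between 49.97 and 52.9. Arrays of 1 group correlated at 0.9922 to 0.9963 over all probe sets, and arrays of different groups at 0.9563 to 0.9660. Spiked-in hybridisation controls, not made by the cells, read 10.75 ± 0.15 (SD, n = 3) in parental and 9.16 ± 0.08 in ERC4. The 3′ minus 5′ signal of GAPDH, a sign of RNA integrity, was 0.06 ± 0.03 in parental and -0.08 ± 0.03 in ERC4. The part of either in the results below was not tested. Of 11 lung adenocarcinoma epithelial markers measured, 11 lay above the array median in parental and 10 in ERC4, and their summed intensity ran from 20500 to 20692 in parental and from 8907 to 9289 in ERC4. NKX2-1, the transcription factor that marks lung adenocarcinoma, was at 8.56, 8.74 and 8.75 in parental and 8.97, 9.14 and 9.04 in ERC4, a difference of 0.37 ± 0.09. Its other probe set differed by -0.19 and was not called, and under quantile normalization the difference was 0.14 and lost its call. EPCAM, an epithelial adhesion protein, fell by 2.64 ± 0.08, KRT19, a simple-epithelium keratin, by 2.59 ± 0.08, and CLDN4, a tight junction protein, by 2.05 ± 0.12. EGFR transcript itself differed little, by 0.21 ± 0.08, with an adjusted p of 0.0457 over genes and 0.0505 over probe sets by limma.

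Markers of other cell types were read as a check on the line. Of 10 fibroblast markers, 2 lay above the median in parental and 1 in ERC4, with a summed intensity of 469 to 475 in parental and 378 to 403 in ERC4. Of 7 endothelial markers, 1 lay above the median, in ERC4, and of 7 leukocyte markers 2 did, in parental. Of 16 hepatocyte markers, 5 lay above the median in each group, 4 were called higher, 6 lower and 6 not called, and the median difference was -0.13. Their summed intensity was 984 to 1059 in parental and 2778 to 3175 in ERC4, with FGB the largest part of the difference. ALB, the serum protein albumin, went from 3.62 to 6.92 and FGB, the fibrinogen beta chain, from 8.04 to 11.12, while SERPINA1 fell and APOA1, APOA2, APOB and AHSG, which hepatocytes make in quantity, lay below the median in both groups. Their part in the results was not tested.

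Across the transcriptome the groups differed widely. Of 11963 genes, each read by its brightest probe set, 3088 were called higher in ERC4 (25.8%) and 3096 lower (25.9%) at an adjusted p under 0.05 by limma, and the arrays of the groups did not overlap in 60.5% of genes. Over all 22215 probe sets, 23.6% were called higher and 24.9% lower. The direction of these calls followed signal. Among the 3988 brightest genes 1819 were called higher and 656 lower, so that 73.5% of calls were higher, while among the 3988 dimmest 296 were higher and 1125 lower, so that 20.8% were. As shares of all genes of that signal, 45.6% of the brightest were called higher and 16.4% lower, 24.4% and 33.0% of the middle group, and 7.42% and 28.2% of the dimmest. Counts of called genes in a list, given below at an adjusted p under 0.05, carry this slope with them. The account rests mainly on genes that changed at least 2-fold and whose higher group lay above its array median, called expressed here. Of such genes 494 were higher (4.13% of all genes) and 193 lower (1.61%). They followed signal as well, with 264 higher and 75 lower among the 3988 brightest genes and 15 and 12 among the 3988 dimmest. Forcing the arrays to 1 distribution moved this balance: quantile normalization gave 383 higher and 246 lower, so that 60.9% were higher in place of 71.9%.

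**Figure D1:**
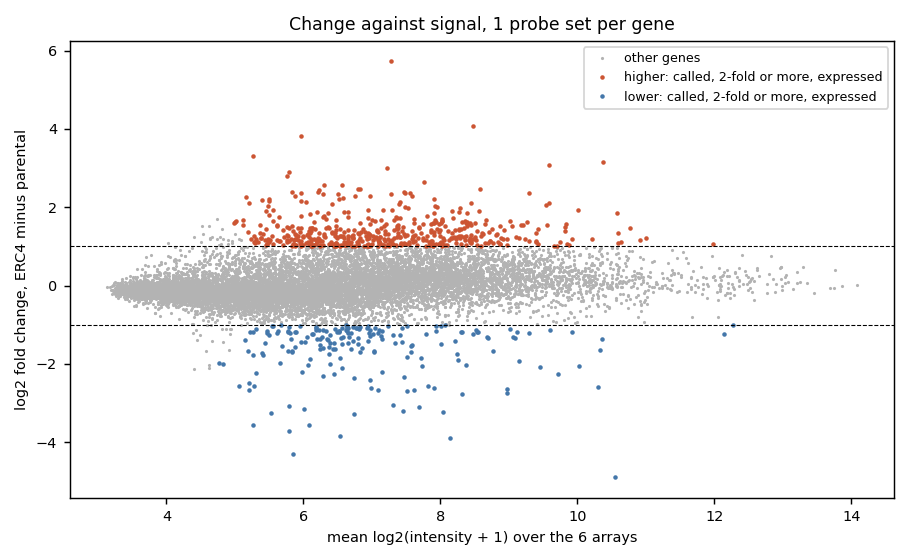
Difference between ERC4 and parental (log2, vertical) against the mean log2 level over the 6 arrays (horizontal) for 11963 genes, with 494 genes higher and 193 lower in ERC4 at 2-fold or more coloured and dashed lines at 2-fold. The grey cloud tilts upwards with signal, so that dim genes lie mostly below 0 and bright genes mostly above it.

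Many genes carry several probe sets, which read different stretches of the transcript and test each other. Among 2227 genes with 2 or more expressed probe sets, 821 had every expressed set called in 1 direction, 898 had only some called, 389 had none called and 119 had sets called in opposite directions. Among the 687 genes changed at least 2-fold, 179 had 2 or more expressed probe sets and 151 of these agreed in all of them. Large changes are thus led below by genes whose expressed probe sets all agreed and whose arrays did not overlap, ranked by the smaller of their changes.

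Secreted and cytoskeletal genes stood among the 15 agreeing genes that rose most. FGB rose from 7.96, 8.24 and 7.92 in parental to 11.15, 11.23 and 10.99 in ERC4, 8.48-fold, and its second probe set rose by 2.40. GBP1, an interferon-induced guanylate-binding protein, read 6.10, 6.62 and 6.09 in parental and 8.66, 8.75 and 8.59 in ERC4, 5.27-fold higher. The GBP1 set can also bind transcripts of related GBP genes, and its second set rose by 3.12. IGFBP7, a secreted protein that binds insulin-like growth factors, was the most scattered in parental cells, at 6.38, 5.96 and 6.82, and tight in ERC4, at 8.69, 8.72 and 8.81. It rose 5.11-fold here and by 4.32 on the log2 scale in its other expressed set, so its size depends on the probe set. In each of these genes every ERC4 array lay above every parental array, which the choice of genes required.

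Matrix and actin genes followed. THBS1, the secreted matrix protein thrombospondin-1, went from 5.95, 5.81 and 5.71 to 8.08, 8.19 and 8.10, 4.92-fold, and its 4 expressed sets rose by 1.68 to 3.17. TPM1, the actin-binding tropomyosin 1, went from 8.58, 8.55 and 8.49 to 10.61, 10.72 and 10.59, 4.29-fold, with 3 sets at 1.75 to 2.97. EPB41L3, which links membrane proteins to the cytoskeleton, lay below the array median in parental cells at 4.44, 4.31 and 4.43 and above it in ERC4 at 6.70, 6.71 and 6.43. TNIK, a kinase of the Wnt and JNK pathways, showed the same crossing, from 5.05, 4.95 and 5.18 to 6.41, 6.71 and 6.48.

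Regulators of transcription and metabolism made up the rest. EPAS1, the oxygen-regulated factor HIF-2 alpha, rose from 8.52, 8.57 and 8.45 to 10.61, 10.56 and 10.53, 4.15-fold. NR5A2, an orphan nuclear receptor of liver and pancreas, rose from 5.07, 5.15 and 5.32 to 6.99, 7.02 and 7.01, 3.55-fold, with all 3 expressed sets between 1.55 and 2.21. NNMT, which methylates nicotinamide, rose 3.62-fold, from 9.58, 9.77 and 9.62 to 11.60, 11.50 and 11.44. ATP6AP2, an accessory subunit of the proton pump that acidifies lysosomes, rose 3.76-fold, from 7.33, 7.89 and 7.60 to 9.52, 9.61 and 9.43. RRAGD, a Rag GTPase that recruits mTORC1 to lysosomes, rose 2.54-fold, and ALDH7A1, a lysine-degrading aldehyde dehydrogenase, 2.80-fold. CHKA and UGCG, 2 lipid enzymes, complete the 15 and are described with their group. The largest adjusted p among the 15 was 5.64e-06, that of IGFBP7, by limma.

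The 15 agreeing genes that fell most were led by epithelial surface proteins. LAD1, the basement membrane protein ladinin-1, fell from 9.26, 9.14 and 9.29 to 6.03, 6.23 and 6.16, 8.53-fold, and its second set by 3.30. ST14, the epithelial membrane protease matriptase, fell from 8.92, 8.84 and 9.09 to 6.34, 6.26 and 6.21, 6.40-fold, and its second set by 3.70. ITGB4, the hemidesmosome integrin beta 4, fell from 8.26, 8.14 and 8.11 to 5.78, 5.70 and 5.80, which is at the array median. All 3 ERC4 arrays of each gene lay below every parental array, which the choice of genes required here too.

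Other epithelial genes fell by less. AP1M2, the clathrin adaptor subunit that sorts cargo to the basolateral membrane, fell 4.60-fold, SDC1, the heparan sulfate proteoglycan syndecan-1, 4.08-fold, ADGRG1, an adhesion G-protein-coupled receptor, 4.03-fold, and PKP3, the desmosome protein plakophilin 3, 2.27-fold. HS3ST1, which sulfates heparan chains, fell from 6.06, 6.58 and 6.67 to 4.23, 4.08 and 4.27, below the array median. CEACAM6, a cell-surface adhesion protein, fell 2.80-fold, though its probes can bind related CEACAM transcripts. Signalling and transport genes in the group were MAPK13, the p38 delta kinase, down 3.24-fold, SLC6A8, the creatine transporter, down 3.24-fold, and RAC2, a GTPase best known in blood cells, down 2.52-fold. The inflammatory chemokine CXCL8 went from 7.69, 8.01 and 7.76 to 6.40, 6.56 and 6.43. NQO1, a quinone reductase and standard NRF2 target, went from 10.50, 10.56 and 10.51 to 9.31, 9.33 and 9.36 and remained well above the median. SERPINA1, the protease inhibitor alpha-1-antitrypsin, fell 2.25-fold while FGB, another liver-secreted protein, rose. The largest adjusted p among these 15 was 1.17e-05, that of SERPINA1, by limma.

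**Figure D2:**
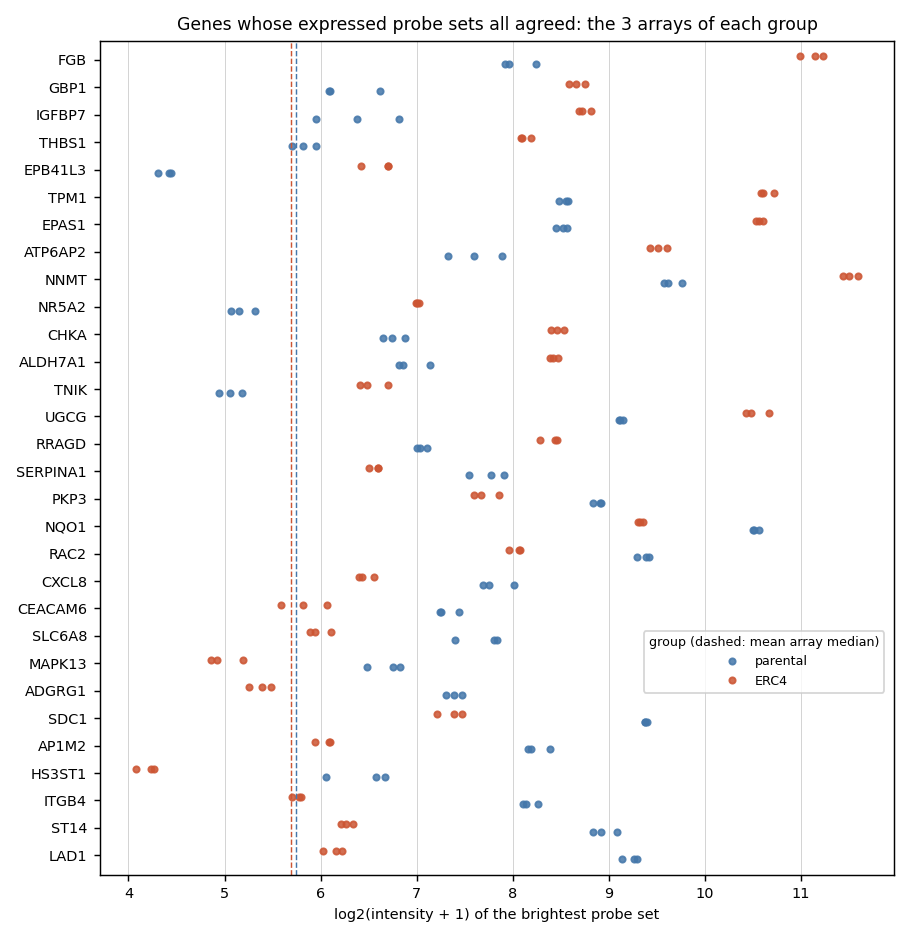
Level on each of the 3 parental (blue) and 3 ERC4 (red) arrays, as log2(intensity + 1) of the brightest probe set, for the 15 genes that rose and the 15 that fell in every expressed probe set, with dashed lines at each group's mean array median. ERC4 arrays lie to the right for the upper 15 genes and to the left for the lower 15. They nowhere overlap parental arrays, which the choice of genes required.

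Of the 41 gene lists read for further programs, which hold 913 genes of which 778 were measured, 25 had at least 1 expressed member changed 2-fold or more. The share of members that rose at least 2-fold was 26.1% for enzymes of sphingolipids and phospholipids, 25% for metallothioneins and zinc transport, 23.8% for lysosome and autophagy and 22.7% for complement and coagulation, against 4.13% of all genes. In that order 16 of 23, 9 of 12, 15 of 21 and 10 of 22 members were among the brightest genes. Of the 3988 brightest genes 264 rose that far. The share that fell at least 2-fold was 13.6% for heparan sulfate genes, against 1.61% of all genes. Of these 22 genes 9 were among the brightest, where 75 of 3988 fell that far. These counts describe lists that were chosen with earlier results of these data known, and no test of a list was made.

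**Figure D3:**
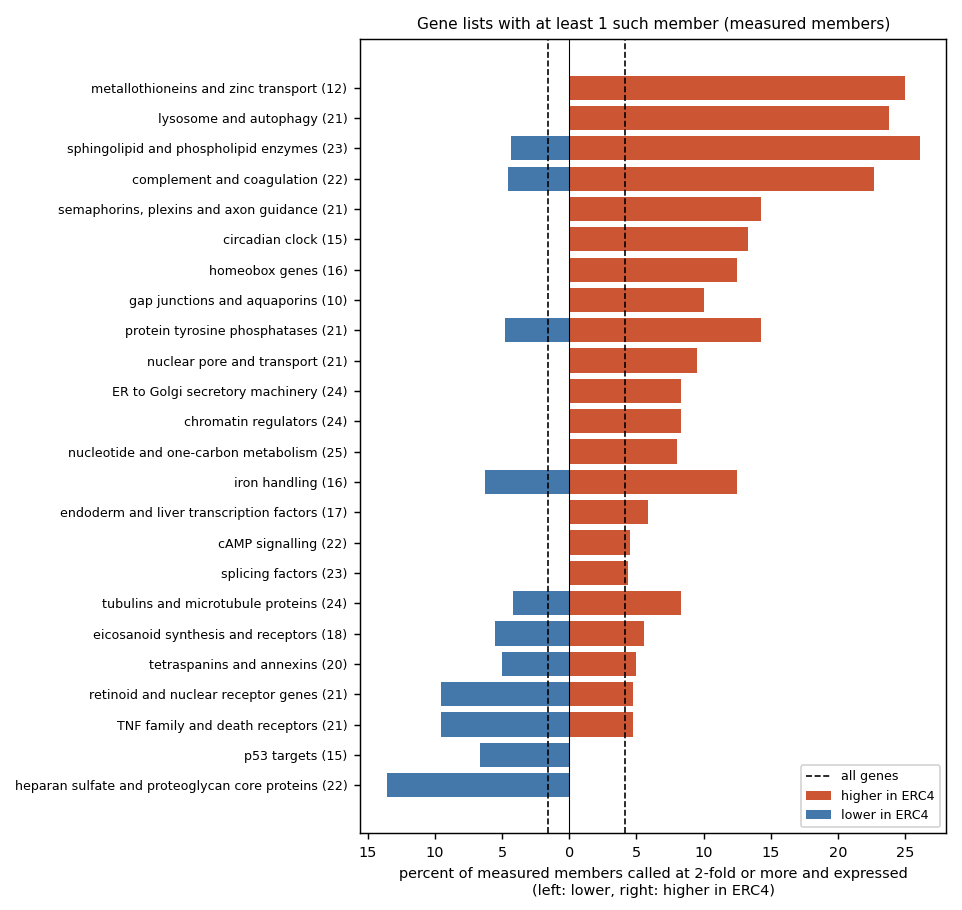
Percent of each list's measured members (number in brackets) that were called, expressed and at least 2-fold higher (red, right) or lower (blue, left) in ERC4, for 24 of the 25 lists with at least 1 such member. Dashed lines mark all genes, 4.13% higher and 1.61% lower, and the 4 lists of metal, lysosome, lipid and complement genes reach 22.7% or more on the right.

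Metallothioneins are small cysteine-rich proteins that hold zinc and copper and are switched on by the zinc-sensing factor MTF1, which binds metal response elements close to the start of transcription. Metallothionein promoters are shown here because the members of this family moved unequally. The 250 bases before each start follow, from RefSeq on GRCh38.p14, all on the plus strand. Matches to the core TGCACNC or TGCGCNC on either strand are in capitals. Overlapping matches were counted separately, and those printed here do not overlap. MT1X is at chr16:56682220-56682469, MT2A at chr16:56608334-56608583 and MT1H at chr16:56669564-56669813.
MT1X: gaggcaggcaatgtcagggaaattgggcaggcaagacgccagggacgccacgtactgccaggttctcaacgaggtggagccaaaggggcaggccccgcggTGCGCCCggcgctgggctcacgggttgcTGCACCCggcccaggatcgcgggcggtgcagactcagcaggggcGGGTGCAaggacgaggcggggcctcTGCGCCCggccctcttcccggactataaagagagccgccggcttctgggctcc
MT2A: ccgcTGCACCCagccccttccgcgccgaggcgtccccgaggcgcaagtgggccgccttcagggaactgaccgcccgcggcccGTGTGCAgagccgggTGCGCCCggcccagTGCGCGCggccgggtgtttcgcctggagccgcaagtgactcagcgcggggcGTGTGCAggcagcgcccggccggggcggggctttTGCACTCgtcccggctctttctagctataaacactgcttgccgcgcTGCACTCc
MT1H: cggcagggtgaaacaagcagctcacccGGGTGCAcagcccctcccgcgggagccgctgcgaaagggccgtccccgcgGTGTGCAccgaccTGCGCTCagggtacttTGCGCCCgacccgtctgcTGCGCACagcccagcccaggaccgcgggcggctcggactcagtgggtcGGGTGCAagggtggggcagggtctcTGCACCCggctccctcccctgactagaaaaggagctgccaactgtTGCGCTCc
MT1X held 4 matches, MT2A 7 and MT1H 8. At least 1 match was held by 24.7% of all 27305 promoters and 3 or more by 1.56%, and of the 7 promoters found for the list's 12 measured genes, 5 held at least 1 and 3 held 3 or more. A match is a description of the letters and not a measured binding site.

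Of 12 genes of metallothioneins and zinc transport, 7 were higher (58.3%) and 1 lower (8.33%), against 25.8% and 25.9% of all genes. The other 4 were not called, and 9 of the 12 were among the brightest, of which 45.6% were called higher. The median difference was 0.41 against -0.05 over all genes. MT1X went from 10.39, 10.43 and 10.39 to 11.59, 11.64 and 11.61, 2.32-fold, and its second set rose by 1.26. MT2A went from 11.43, 11.43 and 11.46 to 12.49, 12.54 and 12.50, 2.10-fold. Replicates of both genes lay close together, and the groups were apart on every array. MT1F rose by 0.58 and MT1H by 0.32, while MT1G, at -0.04, and MT1E, at -0.05, were not called. Metallothionein probes bind near-identical family members, so the split among them is uncertain. The importer SLC39A14, which brings zinc and iron into cells, rose from 7.26, 7.31 and 7.12 to 8.60, 8.83 and 8.61, 2.74-fold. The importer SLC39A8 fell by 0.22 ± 0.08 in its brightest set, by 1.27 in another, and differed by 0.06, uncalled, in one more.

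Of 16 iron genes measured, 7 were higher (43.8%) and 4 lower (25%), near the shares given for genes of their signal, 8 of them being among the brightest, and the median was 0.03. A few members changed by more. ACO1, the cytosolic aconitase that doubles as the iron-responsive RNA-binding protein IRP1, rose from 7.21, 7.44 and 7.24 to 9.26, 9.28 and 9.30, 3.95-fold. HMOX1, the oxygenase that breaks down haem, rose from 5.60, 5.76 and 5.80 to 7.68, 7.70 and 7.41, 3.67-fold. TFRC, the transferrin receptor, rose by 0.85 and FTL, the ferritin light chain, by 0.22. STEAP1, a member of the metalloreductase family, fell 2.75-fold. HMOX1 and NQO1 are both textbook NRF2 targets and went in opposite directions. Among 21 other genes of oxidant defence 7 were higher (33.3%) and 4 lower (19%), against 25.8% and 25.9% of all genes, with 13 among the brightest. GPX4, which reduces lipid peroxides, was 1.95-fold higher and CYBA, a subunit of NADPH oxidases, 1.91-fold lower.

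Lysosomes degrade material delivered by endocytosis and autophagy, and many of their genes carry the CLEAR element, with core CACGTG, that TFEB and related factors bind. Of 21 lysosome and autophagy genes measured, 10 were higher (47.6%), 3 lower (14.3%) and 8 not called, with a median difference of 0.18. These shares lie near those of the brightest genes, 45.6% and 16.4%, and 15 of the 21 were among the brightest. NPC1, which exports cholesterol from lysosomes, rose from 7.67, 7.53 and 7.48 to 9.01, 9.01 and 8.92, 2.68-fold. LAMP2, a lysosomal membrane glycoprotein, rose from 6.84, 6.95 and 7.15 to 8.19, 8.29 and 8.20, 2.37-fold, with its 3 sets between 0.59 and 1.40. MAP1LC3B, the LC3 protein of autophagosome membranes, rose from 8.08, 8.28 and 8.32 to 9.32, 9.29 and 9.33, 2.12-fold, with its other expressed set at 0.86. In all 3 genes the groups were apart on every array. The sialidase NEU1 rose by 1.05 and the autophagy receptor SQSTM1 by 1.01.

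CTSA, a carboxypeptidase that stabilises NEU1, rose by 0.96 and NPC2, the partner of NPC1, by 0.95, just under 2-fold. These members sit at the threshold: 5 passed it here, 3 with log2(intensity + 16) and 2 under quantile normalization, under cyclic loess and when all probe sets of a gene were averaged. The 3 members called lower were GABARAPL1, an LC3 relative, at -0.62 with its other expressed set at -0.13 and not called, TFEB, the lysosomal transcription factor, at -0.46, and ULK1, the kinase that initiates autophagy, at -0.33. LAMP1, the closest relative of LAMP2, differed by 0.14 and was not called.

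NEU1, which rose, and LAMP1, which was not called, are shown to set a promoter with 1 match to CACGTG beside one with 5. NEU1 is at chr6:31862822-31863071 on the minus strand and LAMP1 at chr13:113296989-113297238 on the plus strand, with matches in capitals.
NEU1: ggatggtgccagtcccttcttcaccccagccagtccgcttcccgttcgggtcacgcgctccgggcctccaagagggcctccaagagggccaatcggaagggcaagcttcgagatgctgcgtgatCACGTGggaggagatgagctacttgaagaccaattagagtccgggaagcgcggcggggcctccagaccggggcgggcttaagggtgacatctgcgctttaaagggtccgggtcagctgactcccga
LAMP1: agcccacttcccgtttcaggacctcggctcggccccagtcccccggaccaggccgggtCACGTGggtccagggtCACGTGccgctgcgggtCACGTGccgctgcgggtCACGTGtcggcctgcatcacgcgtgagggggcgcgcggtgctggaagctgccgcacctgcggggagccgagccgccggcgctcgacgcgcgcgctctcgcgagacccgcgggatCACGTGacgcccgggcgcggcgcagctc
Of 17 promoters found for the list, 6 held a match (35.3%), against 6.49% of all promoters. Of the 5 members that rose at least 2-fold, 4 had a promoter in the table and 1 of these, NEU1, held a match.

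Sphingolipids are built in the endoplasmic reticulum from serine and a fatty acid, through ceramide, to glycosylated forms, and phosphatidylcholine is made from phosphorylated choline. Of 23 such enzymes and their receptors measured, 9 were higher (39.1%), 7 lower (30.4%) and 7 not called. Of the 23, 16 were among the brightest genes, of which 45.6% were called higher and 16.4% lower. The median was 0.01, so the list moved in both directions. Along the ceramide route SPTLC1, a subunit of the enzyme of the first step, rose by 1.03, CERS2, a ceramide synthase for very long acyl chains, by 1.10, and DEGS1, the desaturase that yields ceramide, by 1.07. UGCG, which turns ceramide into glucosylceramide, rose from 9.15, 9.10 and 9.12 to 10.48, 10.67 and 10.43, 2.64-fold, and by 2.01 in its second set. ASAH1, the lysosomal enzyme that cleaves ceramide, rose by 0.64. SPTLC2, the catalytic partner of SPTLC1, differed by -0.26 and was not called, and CERS6, a synthase for shorter acyl chains, fell by 0.45.

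CHKA, the kinase that starts phosphatidylcholine synthesis, rose from 6.88, 6.65 and 6.75 to 8.39, 8.46 and 8.54, 3.27-fold, and by 1.45 in its second set. Of the lipid phosphate phosphatases, PLPP3 rose from 8.23, 8.38 and 8.32 to 9.56, 9.44 and 9.51, in 3 agreeing sets of 1.19 to 1.79, and PLPP2 fell from 8.38, 8.21 and 7.91 to 6.65, 6.75 and 6.77. The arrays of both genes were apart, in opposite directions. SPHK1, which makes sphingosine 1-phosphate, fell by 0.50. Of the 6 enzymes at 2-fold or more, 2 stayed past it under quantile normalization and 2 under cyclic loess.

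**Figure D4:**
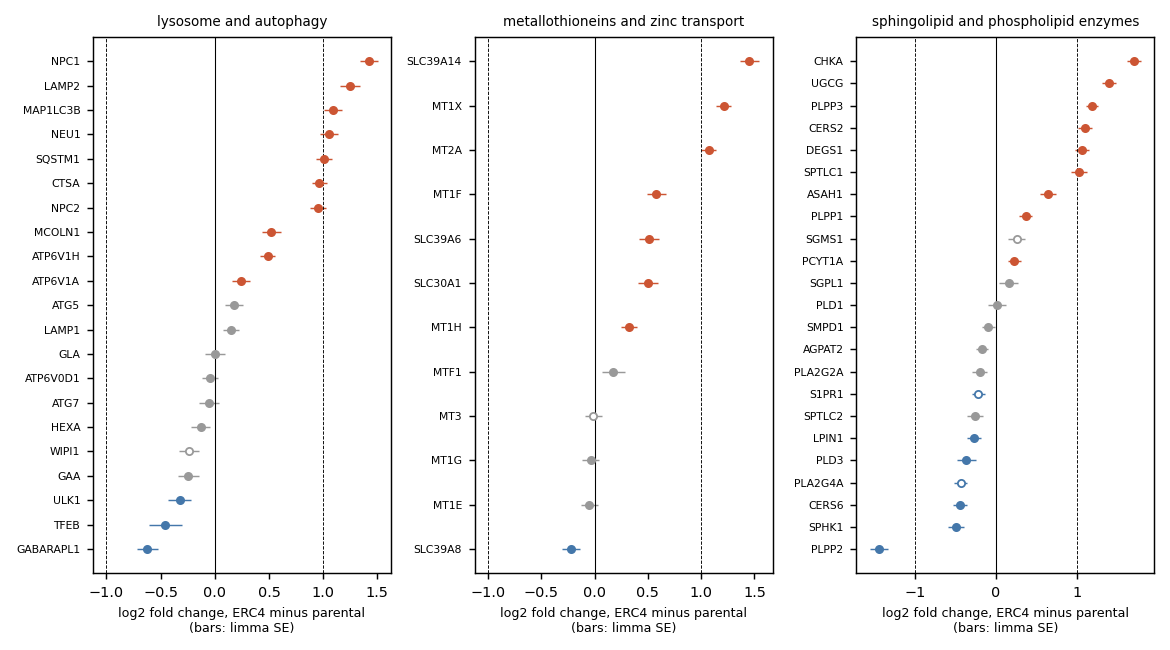
Difference between ERC4 and parental (log2, with limma's SE as bars) for every measured member of the lysosome and autophagy list (21), the metallothionein and zinc list (12) and the sphingolipid and phospholipid list (23). Red points were called higher, blue lower and grey not called, open points lay below the array median, and dashed lines mark 2-fold, which 5, 3 and 6 members passed upwards.

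Complement and coagulation genes encode blood-borne proteases, their receptors and inhibitors. Of 22 measured, 7 were higher (31.8%), 8 lower (36.4%) and 7 not called, against 25.8% higher and 25.9% lower of all genes. Of the 22, 10 were among the brightest. C1R and C1S, the proteases of the C1 complex, rose side by side, C1R from 6.85, 6.54 and 6.75 to 8.32, 8.09 and 8.18, and C1S from 6.48, 6.58 and 6.84 to 8.16, 8.15 and 8.03, 2.81-fold and 2.79-fold. C5, which forms the membrane attack complex, rose by 1.14, whereas C3, the central component, fell by 0.65. F2R, the thrombin receptor PAR1, lay under the array median in parental cells at 4.44, 3.90 and 3.75 and above it in ERC4 at 6.20, 6.40 and 6.30. PROS1, the anticoagulant protein S, rose by 1.21. TFPI2, a matrix-bound protease inhibitor, fell from 7.60, 7.51 and 7.62 to 5.32, 5.21 and 5.44, 4.76-fold, while TFPI, its relative, differed by 0.01.

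Guidance cues of the semaphorin class signal through plexins and neuropilins and steer migrating cells as well as axons. Of 21 measured, 6 were higher (28.6%) and 10 lower (47.6%), against 25.8% and 25.9% of all genes. Of the 21, 13 were expressed and 7 were among the brightest. The median was -0.22, and 3 rose at least 2-fold. The secreted ligand SEMA3C rose from 5.91, 6.10 and 5.92 to 7.80, 7.95 and 8.01, 3.84-fold, but by 0.39 in its second set. Its receptor NRP1, neuropilin-1, rose 2.31-fold, and by 0.64 in another expressed set, and DPYSL2, which carries semaphorin signals to microtubules, 2.25-fold. Plexin receptors of the B and D classes fell, PLXNB2 by 0.93, PLXNB1 by 0.52 and PLXND1 by 0.59, and PLXNA1 rose by 0.46. Under quantile normalization and under cyclic loess 1 member fell at least 2-fold.

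Microtubule genes split. Of 24 tubulins and microtubule proteins, 5 were higher (20.8%), 7 lower (29.2%) and 12 not called, near the 25.8% and 25.9% of all genes. Of the 24, 15 were among the brightest. TUBB2A, a beta-tubulin whose probes can bind its near-identical copy TUBB2B, went from 6.45, 6.61 and 6.27 to 8.72, 8.75 and 8.71, 4.87-fold, MAP1B, which stabilises microtubules, rose 2.05-fold and by 0.45 in its other expressed set, and MAPRE3, which tracks their growing ends, fell 2.43-fold.

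Protein tyrosine phosphatases oppose receptor kinases. Of 21 measured, 9 were higher (42.9%) and 5 lower (23.8%), against 25.8% and 25.9% of all genes, with 7 among the brightest. PTPRG rose from 4.35, 4.75 and 4.41 to 6.35, 6.48 and 6.38, PTPN13 from 4.11, 4.03 and 4.40 to 5.88, 5.87 and 5.77, and PTPRE from 4.89, 4.82 and 4.60 to 6.12, 5.94 and 5.88. All 3 crossed the array median between the groups. PTPN1, which dephosphorylates EGFR among others, rose by 1.00 and PTPN11, the SHP2 phosphatase that relays RAS signals, by 0.67. PTPRH fell 2.28-fold, the single member to fall so far, and missed 2-fold with log2(intensity + 16), where the count was 0.

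Heparan sulfate chains on core proteins hold growth factors at the cell surface. Of 22 genes measured, 3 were higher (13.6%) and 9 lower (40.9%), against 25.8% and 25.9% of all genes. Of the 22, 14 were expressed and 9 were among the brightest. The 3 that fell at least 2-fold were SDC1 and HS3ST1, given above, and the basement membrane proteoglycan HSPG2, which went from 7.05, 6.97 and 6.99 to 5.79, 5.88 and 6.04, with its other expressed set at -0.81. SDC4, another syndecan, fell by 0.70. The 3 called higher were the chain polymerases EXT2, by 0.63, and EXT1, by 0.32, and the sulfotransferase HS2ST1, by 0.99, which passed 2-fold with no pseudocount, under median centring and without parental replicate 2, parental replicate 3 or ERC4 replicate 3, giving 1 member higher in each.

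Of 21 retinoid and nuclear receptor genes, 13 were lower (61.9%) and 5 higher (23.8%), against 25.9% and 25.8% of all genes. Of the 13, 7 lay below the array median, where calls over all genes were mostly lower too. CRABP2, the carrier that delivers retinoic acid to its receptor, fell from 8.80, 8.77 and 8.99 to 6.11, 6.13 and 6.22, 6.50-fold, and DHRS3, which reduces retinal to retinol, 2.30-fold. RBP4, the retinol carrier of blood plasma, rose 4.07-fold, from 4.15, 4.51 and 4.74 to 6.45, 6.66 and 6.37. The other RBP4 set, below the array median in both groups, differed by -0.07 and was not called. Of the receptors, RARG fell by 0.62 and VDR by 0.71, and NR3C1, the glucocorticoid receptor, rose by 0.76.

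Transcriptional regulators changed in both directions. In the circadian clock, 5 of 15 genes were higher (33.3%) and 2 lower (13.3%), against 25.8% and 25.9% of all genes, with 1 among the brightest. The repressor CRY1 rose from 4.19, 4.59 and 4.13 to 6.57, 6.52 and 6.42, 4.57-fold, and NFIL3, a repressor of clock output genes, 2.59-fold, while the core activator BMAL1, at -0.24, was not called. Of 16 homeobox genes, 4 were higher (25%) and 7 lower (43.8%), but 6 of the 16 were expressed and 0 were among the brightest. HOXC6 rose 3.60-fold, from 4.96, 5.81 and 5.52 to 7.28, 7.26 and 7.29, and its cofactor-class gene MEIS2 3.06-fold, while HOXB7 fell by 0.81. Of 17 endoderm and liver factors, NR5A2 was the 1 at 2-fold or more, and CDX2, the intestinal factor, fell by 0.83. Of 24 chromatin regulators, 8 were higher (33.3%) and 10 lower (41.7%), with 15 among the brightest genes. The deacetylase SIRT1 rose 3.10-fold, and of the Polycomb complex PRC2, EED rose by 1.09, EZH2 by 0.74 and SUZ12 by 0.65. HMGA1, a chromatin architecture protein, fell by 0.96, and HMGA2 by 0.95.

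TNF-family genes went both ways, 6 of 21 higher (28.6%) and 7 lower (33.3%), near the 25.8% and 25.9% of all genes, with 8 among the brightest. The receptor TNFRSF9 rose 2.50-fold, though its other set, below the array median in both groups, differed by 0.14 and was not called. The ligand TNFSF13, known as APRIL, fell 3.08-fold. TNFRSF25, a death receptor, fell in all 5 expressed probe sets, by 0.37 to 2.10. Of 18 eicosanoid genes, of which 10 were expressed and 7 among the brightest, 10 were lower (55.6%, against 25.9% of all genes). The largest fall was that of ALOX5, the 5-lipoxygenase, from 6.77, 6.87 and 6.48 to 5.37, 5.42 and 5.41, and the prostaglandin-converting enzyme AKR1C3 was the 1 called higher, 2.25-fold. Of tetraspanins and annexins 5 of 20 were higher (25%) and 10 lower (50%), against 25.8% and 25.9% of all genes, with 14 among the brightest. TSPAN4 was 2.39-fold higher in its brightest set, 0.24 in another, and TSPAN1 3.22-fold lower. Single members at 2-fold or more were also the vasodilator peptide ADM, up 3.10-fold in the list of cAMP signalling, the channel PANX1, up 2.85-fold among gap junctions and aquaporins, the RNA-binding protein QKI, up 3.22-fold with 4 sets of 0.61 to 2.08 among splicing factors, and the p53 target TP53I3, down 2.34-fold.

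Several growth and housekeeping lists had many small calls, at about or above the share of bright genes in general. Called higher were 15 of 21 nuclear pore and transport genes, 15 of 24 of the secretory route from endoplasmic reticulum to Golgi, 11 of 18 cytosolic chaperones, 11 of 21 mitochondrial ribosome genes, 12 of 23 splicing factors and 12 of 25 genes of nucleotide and one-carbon metabolism, or 71.4%, 62.5%, 61.1%, 52.4%, 52.2% and 48% in that order. Their medians ran from 0.10 to 0.36. At most 3 genes of each list were lower. Of the 132 genes of these lists 118 were among the 3988 brightest genes, of which 45.6% were called higher, so the last 3 of these shares lie near that of bright genes. Larger changes among them were SPCS2, a signal peptidase subunit, up 2.98-fold in 2 agreeing sets, SAR1B, the GTPase of COPII vesicles, up 2.30-fold, PRPS2, which makes the ribose phosphate donor of nucleotides, up 3.28-fold, MTR, methionine synthase, up 2.59-fold, and the nuclear pore subunits NUP43 and NUP160, up 2.27-fold and 2.14-fold. The other NUP160 sets, below the array median in both groups, differed by 0.16 and -0.05 and were not called. Cytosolic ribosomal proteins had a median of 0.01, with 4 of 16 higher (25%) and 2 lower (12.5%). All 16 were among the brightest genes, of which 45.6% were called higher and 16.4% lower. Of 12 histone genes 5 were lower (41.7%, against 25.9% of all genes) and 7 not called, and 6 were expressed. H2AX was down by 0.77 in the brightest of 4 agreeing sets.

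In 16 of the 41 lists no expressed member changed 2-fold or more, and their counts are small shifts that the slope with signal also carries. Of 20 genes of HLA class I and peptide processing, 9 were higher (45%) and 2 lower (10%), with 14 among the brightest genes. The immunoproteasome subunit PSMB9 rose by 0.94 and the peptide transporter TAP1 by 0.76, while HLA-C, whose probes share sequence with other HLA genes, fell by 0.30. Of 20 genes of PI3K, AKT and mTOR, 8 were higher (40%) and 3 lower (15%), with 7 among the brightest genes, the kinase subunit PIK3CB at 0.68 and the regulatory subunit PIK3R3 at -0.73. Of 17 DNA repair genes, 6 were higher (35.3%) and 3 lower (17.6%), with 10 among the brightest genes. The checkpoint kinases split, ATR rising by 0.96 and ATM falling by 0.66. Another ATM set, below the array median, differed by 0.02 and was not called. Notch genes gave 4 higher (23.5%) and 7 lower (41.2%) of 17, 5 of them among the brightest, with the target HES1 down by 0.73. Hedgehog genes gave 5 lower of 9 (55.6%, against 25.9% of all genes) and 4 not called, but 3 of the 9 were expressed and 1 was among the brightest, with the target GLI1 down by 0.45. Of 19 neuronal and neuroendocrine genes, read because small-cell change is a known route to resistance, 2 were higher, 9 lower (47.4%) and 8 not called, and 4 of the 19 were expressed and 2 among the brightest. ENO2, a glycolytic enzyme also used as a neuroendocrine marker, rose by 0.88, and CHGA, SYP and INSM1, the defining markers, lay below the array median in both groups.

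Genes read by a single probe set lack the check of agreement. The 5 that rose most were TMEM45A, a transmembrane protein, 5.98-fold, UGDH, which makes UDP-glucuronate, 5.54-fold, RFTN1, the lipid raft protein raftlin, 5.50-fold, GNAI1, an inhibitory G protein subunit, 5.26-fold, and SOAT1, which esterifies cholesterol, 5.19-fold. UGDH went from 7.16, 7.43 and 7.42 to 9.49, 10.09 and 9.84, and SOAT1, more scattered in parental cells, from 4.28, 5.24 and 4.80 to 7.23, 7.18 and 7.04. The 5 that fell most were CST6, a cystatin protease inhibitor of epithelia, 8.82-fold, S100P, a calcium-binding protein, 8.35-fold, CRABP2, given above, SLPI, a secreted leukocyte protease inhibitor, 6.40-fold, and EHF, an epithelial ETS factor, 6.33-fold. S100P went from 8.77, 8.84 and 8.92 to 5.70, 5.75 and 5.89, and EHF from 6.46, 6.57 and 6.57 to 3.95, 3.72 and 3.93. The largest adjusted p of the 10 was 1.13e-05, that of TMEM45A, by limma.

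The same 30 agreeing genes were read in cells with the EGFR shRNA against NT, which share no array with the resistant line. Across the transcriptome, 26% of genes rose and 27.4% fell in EGFRsh, and the effects differed in 49.6%. Of the 15 genes that rose in ERC4, 11 were higher in EGFRsh, RRAGD was lower, by 0.75, and FGB, EPAS1 and CHKA, at 0.21, 0.14 and 0.12, were not called. Of the 15 that fell, 11 were lower and RAC2, CXCL8, NQO1 and SERPINA1 were higher, by 0.86, 3.04, 0.67 and 1.24. The difference of the 2 effects was called by limma in 24 of the 30. For EPAS1 it was 1.91 ± 0.09 (adjusted p = 4.33e-10) and for CHKA 1.58 ± 0.10 (adjusted p = 1.69e-08). Their changes were 2.05 and 1.71 in ERC4, beside the 0.14 and 0.12 in EGFRsh. FGB, EPB41L3 and NR5A2 lay below the array median in both NT and EGFRsh. FGB was at 4.48 and 4.69, so that a change there may go unseen. EPB41L3 and NR5A2 are among the 11 called higher in EGFRsh, by 0.27 and 1.26, but were not expressed there. The differences of effects of these 3 genes, though counted in the 24, are not given. For NNMT the difference was -4.10 ± 0.12 (adjusted p = 7.99e-12). NNMT went from 6.85 in NT to 12.80 in EGFRsh, and from 9.65 in parental to 11.51 in ERC4. The 2 controls thus began at different levels. For ITGB4 it was -0.02 ± 0.12 and for LAD1 -0.19 ± 0.10, neither of them called. The genes were chosen for their change in ERC4, and the 2 sets of arrays had other medians and spreads, so sizes are not on one scale. The difference of effects was fitted with a variance shared by both sets, so its SE and p-values carry the same limit.

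**Figure D5:**
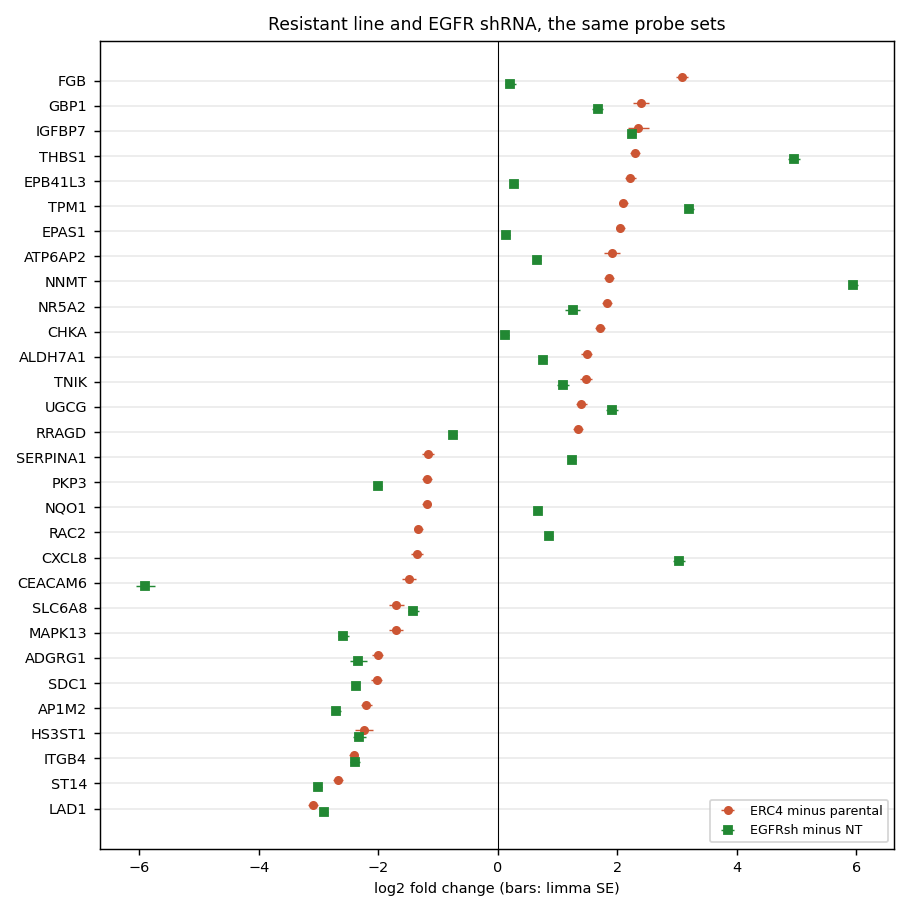
Difference between ERC4 and parental (red circles) and between EGFRsh and NT (green squares), log2 with limma's SE as bars, for the 15 genes that rose and the 15 that fell in every expressed probe set in ERC4. Green squares lie on the other side of 0 for RRAGD, SERPINA1, NQO1, RAC2 and CXCL8, and near 0 for FGB, EPAS1 and CHKA.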

How the data were processed

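The authors deposited linear intensities for 22277 probe sets. Per the submitters' processing notes these come from RMA. The RMA version is not given in the sources used here, nor is which arrays were run through it jointly. From these intensities log2(value + 1) was taken, which understates changes of dim genes, and 62 control probe sets were left out. Gene names came from the platform annotation: 19064 probe sets had 1 symbol, 1043 several and 2170 none, and those without a single symbol were not named. A gene's brightest probe set over the 6 arrays stood for it.

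ERC4 and parental arrays were compared by lmFit and eBayes of limma 3.58.1, run in R 4.3.3, on 6 arrays with 4 residual degrees of freedom, two-sided, with Benjamini-Hochberg adjustment over all genes or probe sets. EGFRsh and NT were fitted likewise, and the difference of effects in 1 model of 12 arrays. Call thresholds were an adjusted p of 0.05 and, where stated, 2-fold with the higher group above its mean array median. An array has no read depth, and the number of arrays limits the precision. Of each list the text names up to 3 members a direction at 2-fold or more, or the largest called one. Other members named were chosen after their values were seen. The 15 and 15 agreeing and 5 and 5 single-set genes leave out genes already named in an earlier account of these data. Groups, members and gene lists were chosen with earlier results of these data known. The result of 1 gene list is not reported here. The procedure was also run on simulated data. Few genes were changed there, without a slope with signal, so that run does not bear on the counts of called genes here. Alternatives covered normalization, pseudocount, filter, variance model, array weights, probe-set choice, thresholds, the replicate number and each array left out. Figures were drawn with matplotlib 3.10.9.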

Additional observations from a re-analysis of the deposited data

How the results depend on the processing

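The counts of genes and probe sets called fell with stricter settings, and more on the lower side. Without dim probe sets, 3015 probe sets and 1880 genes were lower. At an adjusted p under 0.01, 3277 probe sets and 1913 genes were lower. Tested against a 1.2-fold change with limma's treat, 2763 probe sets were higher and 1589 lower, and 1663 genes were higher and 954 lower. The share of higher calls among all called genes was 49.9%, 60.5% without dim probe sets, 63.5% under treat and 59.7% under median centring. Genes at 2-fold or more numbered 494 higher and 193 lower, 383 and 246 under quantile normalization, 408 and 233 under cyclic loess and 579 and 177 under median centring. Quantile normalization shared 377 of its higher and 190 of its lower genes with the main setting. Leaving out 1 array gave 463 to 533 higher and 193 to 209 lower. The replicate number did not pair the arrays (same-number deviations correlated at 0.02, 0.07 and 0.01), and with it as a replicate block 494 genes were higher and 193 lower at 2-fold. Of 142 named genes under 18 settings, 2532 values kept direction and call, 23 lost the call and 1 reversed: KPNB1, at -0.40 in its brightest probe set, was at 0.041 as the mean of its sets, which went in opposite directions. Lost calls concerned SLC39A8, NKX2-1, JAG1 and, under treat alone, 8 small changes. Leaving dim probe sets out moved the median of all genes by 0.14. Signal over background was not tested, since the deposited values hold no detection calls.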

Other observations

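In 5 genes that rose at least 2-fold in the brightest probe set, another expressed set was called lower: CAV2, a caveolar protein, at 1.14 and -0.35, CCDC85B at 1.40 and -0.81, PQBP1, which binds polyglutamine, at 1.54 and -0.52, NRG1, the ERBB ligand neuregulin 1, at 1.68 and -0.999, and ZCCHC14 at 1.04 and -0.52. TSR1, a ribosome biogenesis factor, had sets at 0.75, 1.02 and -0.81. KPNB1, the nuclear import receptor importin beta, had 2 sets called higher, 1 lower and 3 not called among 6 expressed sets. For these 7 genes a single probe set does not give a direction, and which transcript each set reads was not analysed here.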
